A study of Bos taurus with 32 samples.

Results

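The miRNAs bta-miR-10a, bta-miR-10b, bta-miR-196a and bta-miR-196b, whose genes lie within the HOX gene clusters, were followed in the fat of beef steers. They were chosen by name and gene position rather than by a cut on their signal, but with earlier results of these data known. They fill 80 of the 13440 miRNA spots of an array, at 20 spots for each bovine miRNA. Expression was measured on 32 one-colour arrays, 1 for each sample of subcutaneous fat (backfat) or visceral fat (perirenal fat) from 16 yearling Hereford × Aberdeen Angus steers. A group of 8 steers received the Control diet and another of 8 a High fat diet, in which added flaxseed raised the fat content, until slaughter. Each steer gave both depots, which makes 4 groups of 8 arrays: control subcutaneous, control visceral, high fat subcutaneous and high fat visceral. No other treatment or genetic change was given to any group, and the RNA came from pieces of whole fat tissue.

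HOX genes encode transcription factors that give cells their position along the body axis during development, and adult fat depots keep different HOX programmes that reflect where they arose. The clusters also carry miRNA genes. The miR-10 genes sit toward the anterior side, beside the group of paralogs that includes HOXB4 and HOXD4, and the miR-196 genes sit toward the posterior side, beside the HOX9 paralogs. In animals, miRNAs of both families pair with HOX messenger RNAs and lower their output. HOXB8 and HOXC8 are known targets of miR-196, and HOXD10 is a known target of miR-10b. In mouse fat, miR-196a is known for acting on HOXC8 during the formation of brown-like adipocytes in white fat.

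In the RefSeq annotation of the ARS-UCD2.0 assembly, MIR10A lies between HOXB5 and HOXB4 and inside the longer gene model of HOXB3. MIR10B lies inside the model of HOXD4, with HOXD3 and HOXD8 as its nearest other HOX neighbours. MIR196B lies between HOXA10 and HOXA9. The mature miR-196a has 2 genes, MIR196A-1 inside the model of HOXB9 and MIR196A-2 between HOXC9 and HOXC10, so its signal can come from either cluster. The mature forms of bta-miR-10a and bta-miR-10b are nearly alike, and hybridization of one to the probes of the other was not tested.

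Intensities are background-subtracted signals in arbitrary units, summed over those probe sequences of a miRNA whose total was over 3 times its error. An intensity can thus come from only part of the 20 spots of a miRNA. A miRNA counted as detected where at least 1 of its probe sequences gave a total over 3 times its error. For comparisons, each intensity was taken relative to the 75th percentile of the same array, taken over the 91 miRNAs that every one of the 32 arrays detected, and put on the log2 scale, which is called the scaled log2 level below. Values under a common floor, a scaled log2 level of -7.22, were set to it. Of 4 members, 3 passed the filter (detected on at least 8 arrays and above the floor on some array) and entered the fit among 233 miRNAs. The member bta-miR-196b did not pass. Differences between depots were tested with limma with the steer as a block, and p-values were adjusted over all 233 miRNAs by Benjamini-Hochberg. A single spread was estimated for each miRNA over both diets, so the standard error of its depot difference is the same on each. The SD of the within-steer differences was larger in Control than in High fat steers for each tested member. It was 1.14 and 0.33 for bta-miR-10a, 0.88 and 0.27 for bta-miR-10b and 1.75 and 0.45 for bta-miR-196a. The shared standard errors are therefore small for the spread of the Control steers and large for that of the High fat steers.

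The number of miRNAs detected ranged from 115 to 176 on the control arrays and from 169 to 259 on the high fat arrays. The summed intensity of an array ranged from 25970 to 79240 on the Control diet and from 96840 to 366700 on the High fat diet. Each group had its own slide, and each diet its own scan session, so within a diet depot and slide cannot be told apart, nor can diet and scan session. Of 6 miRNAs listed as markers of fat, 5 were detected on the Control diet, where miR-193b was at 0, and all 6 on the High fat diet.

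The subcutaneous array of control steer 108 went against its label in part. Over the 26 miRNAs other than the members that were detected on every array and differed between depots on the High fat diet, its value lay nearer the control visceral mean than the control subcutaneous mean in 20. The other 7 control subcutaneous arrays did so in 1 to 15 of the 26, and the other 7 control visceral arrays in 17 to 25. Results that rest on this array are given with and without it.

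bta-miR-196a was the member that separated the depots. In control visceral fat its intensity was 30.7 in steer 108, 35.1 in 111, 48.7 in 209, 73.3 in 211, 48.0 in 307, 44.3 in 308, 56.2 in 405 and 45.5 in 410. In control subcutaneous fat it was detected in 3 of 8 steers, at 46.7 in steer 108, 4.93 in 209 and 4.28 in 307, and was not detected in steers 111, 211, 308, 405 and 410. Steer 108 alone had a subcutaneous signal inside the range of the visceral arrays.

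The same contrast was present on the High fat diet. The visceral intensity of bta-miR-196a was 172.9 in steer 103, 92.4 in 109, 103.9 in 202, 183.0 in 204, 219.6 in 302, 102.4 in 303, 111.4 in 411 and 68.95 in 412. The subcutaneous intensity was 12.8 in steer 103, 5.25 in 109, 6.64 in 202, 11.8 in 204, 13.7 in 302, 7.5 in 303, 20.5 in 411 and 12.6 in 412. bta-miR-196a was thus detected in subcutaneous fat of all 8 high fat steers, and the highest of these 8 subcutaneous intensities lay below the lowest visceral one.

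**Figure D1:**
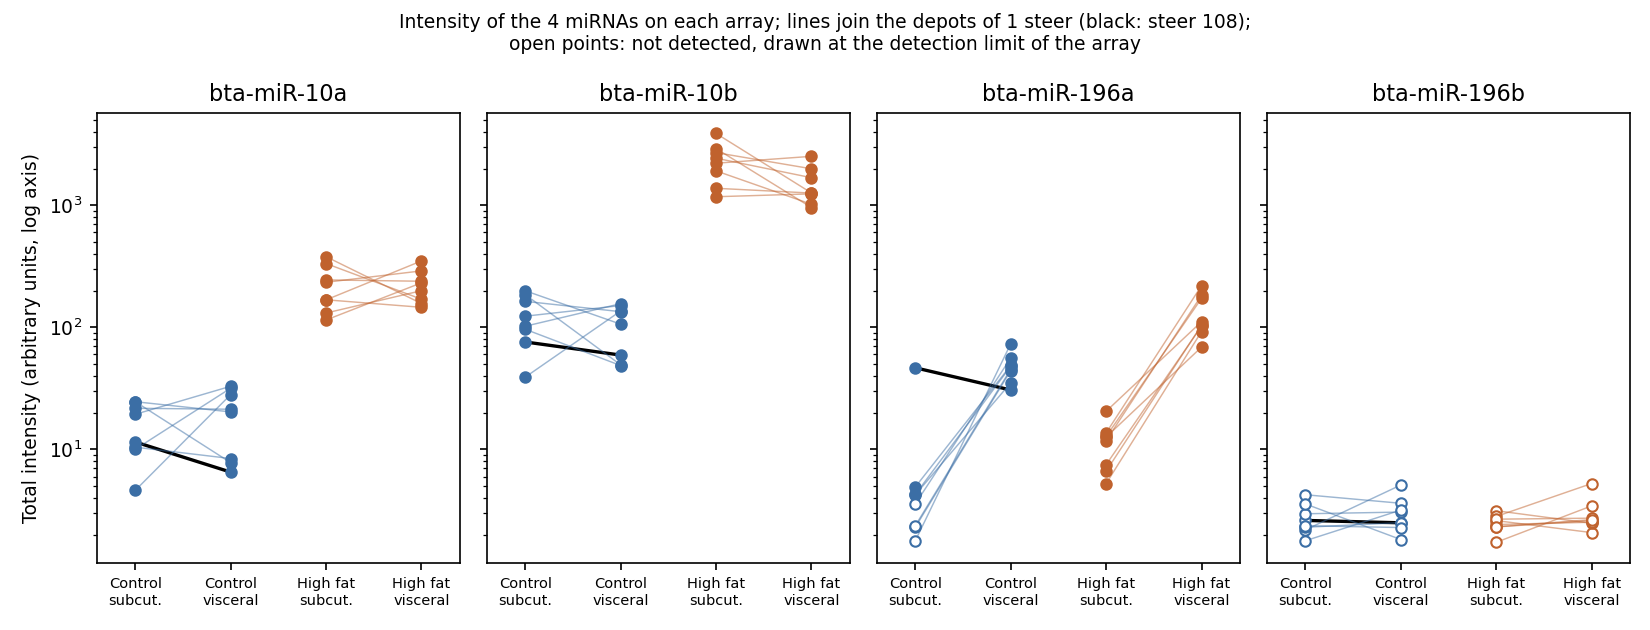
Total intensity (arbitrary units, log axis) of bta-miR-10a, bta-miR-10b, bta-miR-196a and bta-miR-196b on each array by group, with a line joining the 2 depots of each steer, in black for steer 108. Open points are arrays without detection, drawn at the lowest intensity called detected on that array. The lines of bta-miR-196a rise from subcutaneous to visceral fat in all steers but 108, and bta-miR-196b has open points only.

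On the scaled log2 level, bta-miR-196a was higher in visceral fat by 4.39 on the Control diet (standard error 0.427, limma adjusted p = 4.55e-06) and by 4.15 on the High fat diet (standard error 0.427, adjusted p = 3.29e-06). Among the 233 miRNAs tested this was the largest rise on each diet. The scaled difference was above 0 in 8 of 8 steers on both diets, which held for 2.15% of the miRNAs tested in Control steers and 10.3% in High fat steers. In steer 108 this came from the scaling alone, since its intensity was 46.7 in subcutaneous and 30.7 in visceral fat. The visceral arrays all lay above the subcutaneous arrays for 0% of the miRNAs on the Control diet, where the array of steer 108 overlapped for bta-miR-196a too, and for 6.01% on the High fat diet, bta-miR-196a among them. In bulk tissue, fewer cells that express a miRNA and less of it per cell cannot be told apart.

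The size of the difference depended on how low signals were treated. With undetected arrays at their own detection limit and detected ones at their measured value, it was 3.76 on the Control diet (13.6-fold, standard error 0.390) and 4.43 on the High fat diet (21.5-fold, standard error 0.390). With all 4 probe sequences summed on every array whether or not they passed detection, an alternative chosen after seeing the data, the control difference was 3.48 (standard error 0.338). No single value is therefore given as a bound, because 5 of the 8 control subcutaneous arrays had no detected signal. On the High fat diet 6 of the 8 subcutaneous values, all detected, had been raised to the common floor in the comparison above. Without both arrays of steer 108 the control difference was 4.99 with 5 of the 7 remaining subcutaneous values at the same floor, which makes its spread too small to read. Also without steer 108, it was 4.28 with undetected arrays at their own detection limit (standard error 0.264, limma adjusted p = 5.37e-10) and 3.95 with all probes summed (standard error 0.158, adjusted p = 1.06e-11). Within steer 108 it was 0.18, and in the other 7 control steers it ran from 4.36 to 5.54. The within-steer differences on the High fat diet ran from 3.58 in steer 302 to 4.83 in steer 204.

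**Figure D2:**
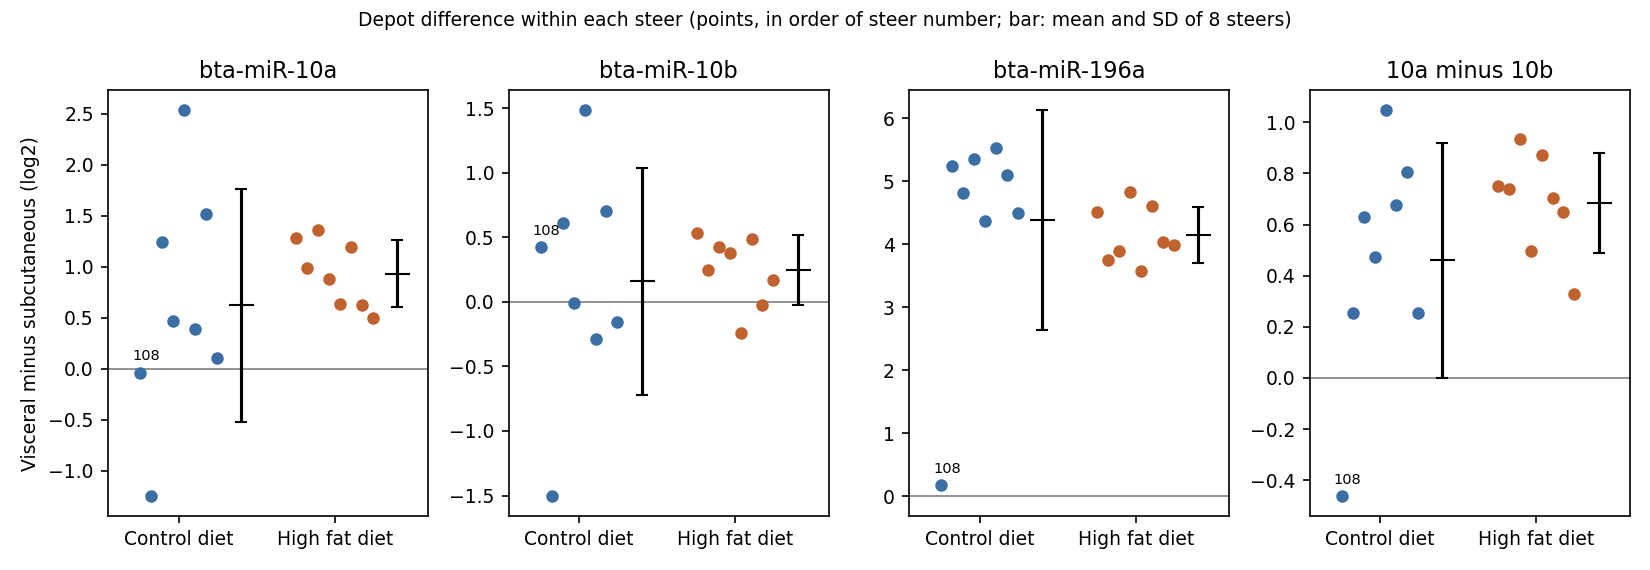
Visceral minus subcutaneous difference in each steer for bta-miR-10a, bta-miR-10b and bta-miR-196a (scaled log2 level) and for bta-miR-10a minus bta-miR-10b (log2 of the intensities), by diet, with the mean and SD of 8 steers. Steer 108 is marked: for bta-miR-196a it lies at 0.18, while the other 15 steers lie between 3.58 and 5.54.

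Each of the 4 probe sequences for bta-miR-196a showed the contrast. The brightest of them had a median probe intensity of 16.3 in control visceral fat (range 11.3 to 27.6) and of 1.51 in control subcutaneous fat (range 0.748 to 16.5, the highest being steer 108). On the High fat diet its median was 40.2 in visceral fat (range 25.0 to 79.3) and 4.80 in subcutaneous fat (range 3.17 to 7.88). The dimmest of the 4 was over 3 times its error on all 16 visceral arrays but on 0 of 8 high fat subcutaneous arrays and on 1 of 8 control subcutaneous arrays, that of steer 108. Tested with a single probe sequence at a time, the depot difference of bta-miR-196a ran from 3.12 to 4.57 on the Control diet and from 2.74 to 4.16 on the High fat diet. In these fits a probe value not over 3 times its error was set to a floor. The low ends came from the dimmest sequence and so depend mainly on that floor.

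bta-miR-196b, the family member from the HOXA cluster, was not detected on any of 32 arrays. Its 3 probe sequences gave 96 values, between -0.872 and 0.785 after background subtraction, and the highest of them relative to its error was 1.25 times that error. Of 640 spots for it, 0 were well above background. The lowest intensity called detected on an array ranged from 1.73 to 5.26, so a signal under that limit would not have been seen. This included 3 high fat visceral arrays on which the intensity of bta-miR-196a was over 150. With no detected value in either depot, no fold change is given for bta-miR-196b.

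**Figure D3:**
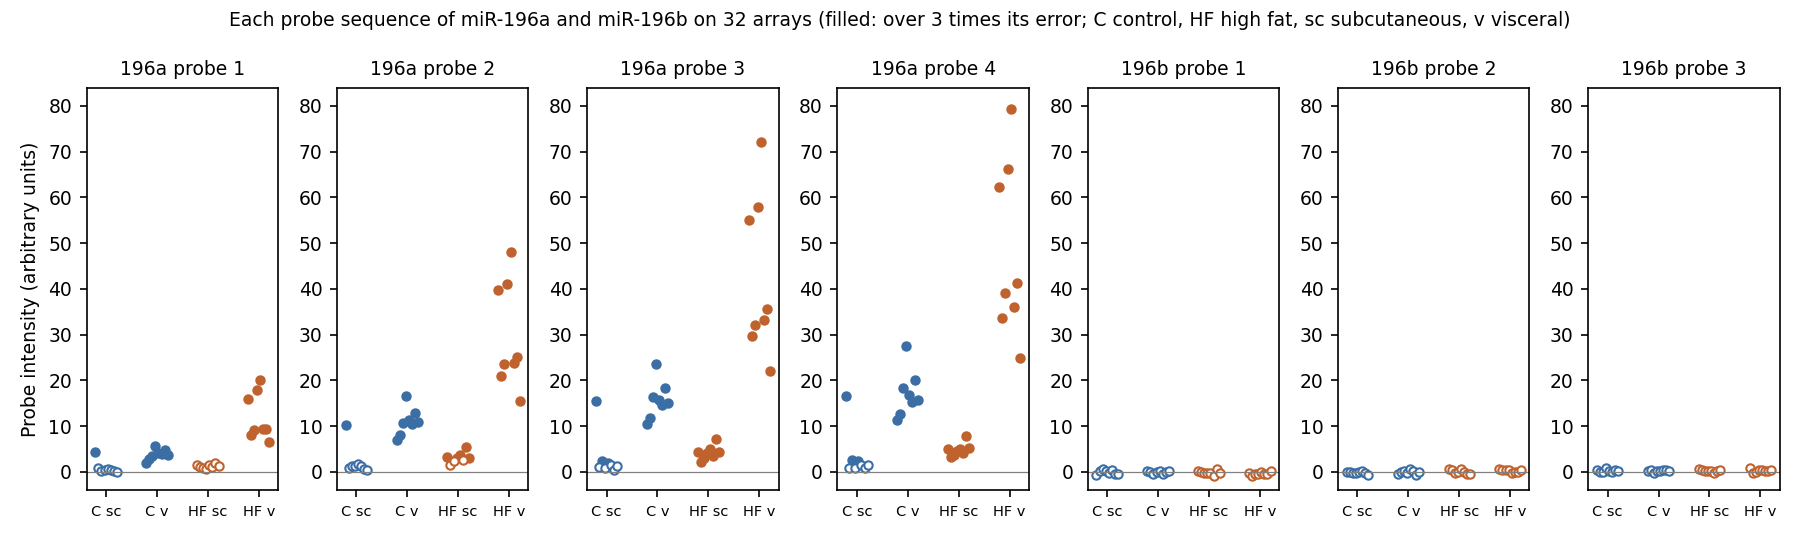
Background-subtracted intensity (arbitrary units) of each probe sequence, 4 for bta-miR-196a and 3 for bta-miR-196b, on the 8 arrays of each group, with filled points where the value is over 3 times its error. All 4 probes of bta-miR-196a are higher in visceral than in subcutaneous fat apart from 1 control subcutaneous array, and all 96 points of bta-miR-196b are open and near 0.

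bta-miR-10a, encoded beside HOXB4, was detected on all 32 arrays. Its intensity in control subcutaneous fat was lowest at 4.61, had a median of 15.5 and was highest at 24.7, and in control visceral fat these were 6.52, 20.8 and 32.9. On the High fat diet they were 115, 201 and 380 (subcutaneous) and 146, 216 and 350 (visceral). Before scaling, the depots overlapped almost fully on both diets. After scaling, bta-miR-10a was higher in visceral fat by 0.93 on the High fat diet (standard error 0.285, limma adjusted p = 0.0270), with a rise in 8 of 8 steers between 0.50 and 1.36. The scaled levels of the groups still overlapped, with a highest subcutaneous value of -2.54 and a lowest visceral value of -2.71.

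On the Control diet the depot difference of bta-miR-10a was 0.62 (standard error 0.285, adjusted p = 0.188), within the spread between steers. It was above 0 in 6 of 8 steers and ran from -1.25 in steer 111 to 2.54 in steer 307. Without steer 108 it was 0.71 (adjusted p = 0.135). One of the 2 probe sequences of bta-miR-10a was over 3 times its error on only 4 of 8 subcutaneous and 5 of 8 visceral control arrays, and the summed intensity on the other control arrays came from the second sequence alone. With both sequences summed on every array, an alternative chosen after seeing the data, the difference was 0.57 (adjusted p = 0.0993).

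The call for bta-miR-10a on the High fat diet depended on scaling. Without scaling the difference was 0.063, and the median over all tested miRNAs was -0.83. Scaled to the labelling spike-ins it was 0.41, against a median of -0.53. Relative to the median of the 91 miRNAs detected on all arrays, a measure in which any scaling factor of an array cancels, bta-miR-10a was higher by 0.79, and 87 of those 91 miRNAs had a lower depot difference. With normexp background correction, which can move this measure, it was 0.55. Neither unscaled nor spike-in scaled value passed the test (adjusted p = 0.883 and 0.382).

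bta-miR-10b, encoded inside the HOXD4 model, was also detected on all 32 arrays. The lowest, median and highest intensities were 39.1, 113 and 199.6 in control subcutaneous fat, 48.7, 120.4 and 156 in control visceral fat, 1176, 2323 and 3881 in high fat subcutaneous fat and 959.5, 1262 and 2520 in high fat visceral fat. The depots overlapped on each diet. Its scaled depot difference was 0.16 on the Control diet (95% interval -0.32 to 0.63, limma adjusted p = 0.799). On the High fat diet it was 0.25 (95% interval -0.23 to 0.72, adjusted p = 0.513). Both intervals use the spread shared by the diets, while the within-steer SD was 0.88 in Control and 0.27 in High fat steers. The difference was above 0 in 4 of 8 control steers and 6 of 8 high fat steers. It was below 0 on both diets without scaling (-0.22 and -0.62) and with spike-in scaling (-0.065 and -0.27), so no direction is given.

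Between depots, limma thus called 1 of the 3 tested members on the Control diet, where 15.9% of all 233 miRNAs were called, and 2 of 3 on the High fat diet, where 20.2% were called. The median depot difference of the 3 members was 0.62 in Control steers and 0.93 in High fat steers, and over all miRNAs tested it was 0.00 and 0.02.

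**Figure D4:**
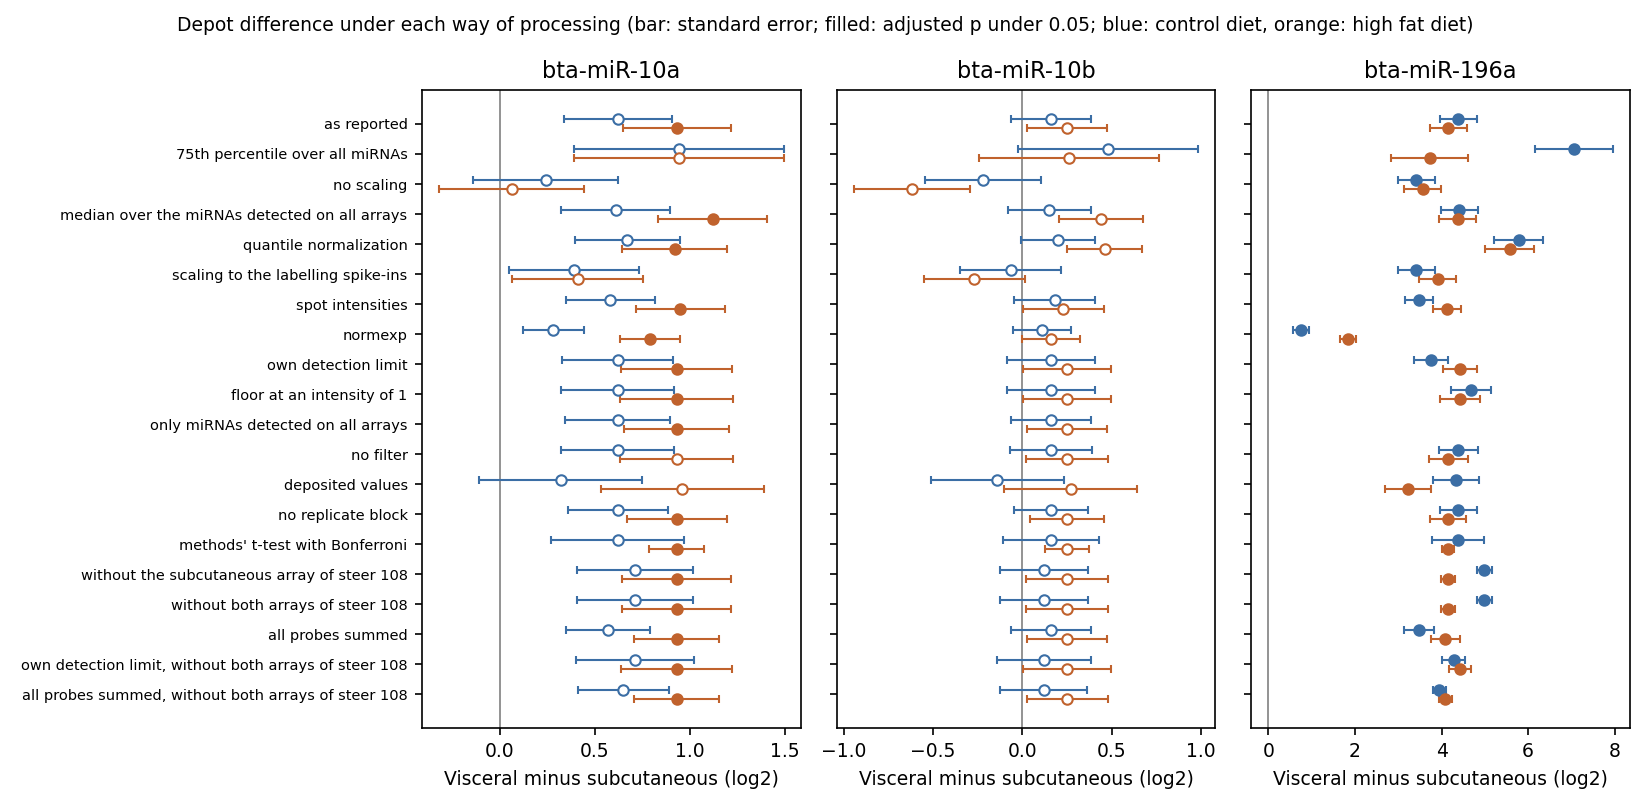
Visceral minus subcutaneous difference (log2, with its standard error) of bta-miR-10a, bta-miR-10b and bta-miR-196a under each way of processing except single probe sequences. The Control diet is blue and the High fat diet orange, and points are filled where the adjusted p is under 0.05. The bta-miR-196a points are filled and above 0 in every row that has one, between 0.75 and 7.06 on the Control diet and between 1.83 and 5.57 on the High fat diet. The bta-miR-10b points are open and on both sides of 0.

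The pair of miR-10 members was also compared within arrays, where scaling cancels. The depot difference of bta-miR-10a minus that of bta-miR-10b, on the log2 of the intensities, was 0.68 ± 0.196 on the High fat diet (SD, n = 8 steers), above 0 in 8 of 8 steers and between 0.33 and 0.93. In a two-sided exact sign-flip test over the 8 steers p was 0.00781, the smallest that 256 sign assignments allow, and 0.0156 adjusted over the 2 comparisons made. On the Control diet it was 0.46 ± 0.460 (SD, n = 8 steers), above 0 in 7 of 8 steers, with an exact p of 0.0312 before and after adjustment. The exception was steer 108 at -0.46, and the highest control value was 1.05. Without steer 108 the control mean was 0.59 ± 0.291 (SD, n = 7 steers), with an exact p of 0.0156, the smallest that 7 steers allow. The intensity of bta-miR-10a relative to bta-miR-10b was therefore 1.61-fold higher in visceral than in subcutaneous fat on the High fat diet and 1.38-fold higher on the Control diet. The dimmer probe sequence of bta-miR-10a entered its intensity on all high fat arrays. On the Control diet it did so on only 4 of 8 subcutaneous and 5 of 8 visceral arrays. The control values therefore also move with detection, and the pair was not tested with both sequences summed on every array.

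On the High fat diet the depots did not overlap in this within-array measure, by a narrow margin. For how many other pairs of miRNAs this holds was not examined, so it does not set this pair apart. Among single miRNAs, the scaled visceral arrays all lay above the subcutaneous ones for 6.01% on this diet. The log2 of bta-miR-10a over bta-miR-10b lay between -3.72 and -2.94 on the subcutaneous arrays and between -2.89 and -2.42 on the visceral arrays. On the Control diet it lay between -3.35 and -2.67 in subcutaneous fat and between -3.18 and -2.20 in visceral fat. The lowest control visceral value, -3.18, was that of steer 108, the next was -2.66, and the subcutaneous value of steer 108 was -2.72.

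Whether the depot difference itself changed with diet was tested as an interaction. The High fat minus Control difference was 0.31 for bta-miR-10a (standard error 0.403, adjusted p = 0.895), 0.09 for bta-miR-10b (standard error 0.317, adjusted p = 0.961) and -0.23 for bta-miR-196a (standard error 0.604, adjusted p = 0.961). None of the 3 members passed, and limma called 1.29% of all miRNAs. The 95% interval for bta-miR-196a, -1.51 to 1.05, left room for a change of over 1 log2 unit in either direction. With each undetected value at the limit of its array it was 0.66 (adjusted p = 0.710). Without both arrays of steer 108 it was -0.84 with the common floor (adjusted p = 0.0784) and 0.15 with the own limits (adjusted p = 0.980), so its sign depended on the treatment of low signals. The median interaction over all tested miRNAs was 0.06.

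Between diets, the miR-10 members were higher on the High fat diet in both depots on the scaled log2 level. For bta-miR-10a the subcutaneous rise was 0.96 (adjusted p = 0.00144) and the visceral rise 1.28 (adjusted p = 6.32e-05), each with a standard error of 0.262. For bta-miR-10b they were 1.39 (adjusted p = 4.38e-07) and 1.48 (adjusted p = 1.35e-07), each with a standard error of 0.205. These directions did not hold under every way of processing. Both miRNAs reversed in both depots when arrays were scaled to the 75th percentile over every miRNA on the array, which was an undetected value on 15 of the 16 control arrays. With normexp bta-miR-10a reversed to -0.93 (subcutaneous, adjusted p = 2.18e-07) and -0.42 (visceral, adjusted p = 0.00684). With the deposited values no call of the miR-10 members between diets was left, with differences of -0.43 and 0.21 for bta-miR-10a and -0.0046 and 0.41 for bta-miR-10b. The intensities themselves did not overlap between diets for either miRNA in either depot, but neither did the summed intensities of the arrays. Without scaling, the median diet difference of the 91 miRNAs detected on all arrays was 2.01 in subcutaneous and 1.63 in visceral fat. The share of all miRNAs without overlap between diets was not computed, so this sets neither miRNA apart.

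The scaled level of bta-miR-196a did not rise with the High fat diet. Its visceral level was lower with that diet (difference -1.01, standard error 0.424, limma adjusted p = 0.0338), and the subcutaneous difference was -0.78 (standard error 0.424, adjusted p = 0.0966). Without both arrays of steer 108 the subcutaneous difference was -0.21 with the common floor (limma adjusted p = 0.303) and -1.20 with the own detection limits (adjusted p = 0.000121). In the latter, 5 undetected control values stood at the limit of their array, which ran from -7.335 to -5.004 over the control subcutaneous arrays. On the high fat subcutaneous arrays the limit ran from -10.04 to -8.988, and all 8 values were measured. The -1.20 thus sets limits, for most control arrays, against measured values. With all probes summed, which uses no such limits, the subcutaneous difference without steer 108 was nearly the same and passed the test. The sign changed with scaling, so no direction is given. Without scaling, these visceral and subcutaneous differences of bta-miR-196a were instead 1.41 and 1.27, and with spike-in scaling 1.86 and 1.37. The diets thus gave bta-miR-196a no direction that held across scalings.

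The diet values are relative to a moving reference. Over all tested miRNAs the subcutaneous median of the diet difference was 0.10 and the visceral median 0.17, but over the 91 miRNAs detected on every array these were -0.91 and -0.80. Relative to these 91, bta-miR-10a was higher by 1.87 and 2.07 in subcutaneous and visceral fat, and bta-miR-10b by 2.30 and 2.28. Relative to the same 91, bta-miR-196a differed by 0.13 and -0.21. For values above the floor the scaling factor of an array cancels in this measure, but background, floor and probe choices can move it. Over 21 ways of processing, the relative difference of bta-miR-10a ran from 0.34 to 2.60 (subcutaneous) and from 0.78 to 2.66 (visceral), and that of bta-miR-10b from 2.13 to 2.35 and from 2.12 to 2.43. That of bta-miR-196a ran, over 20 ways, from -1.05 to 2.92 in the subcutaneous depot, on both sides of 0, and from -0.24 to -0.0062 in the visceral depot. limma called 2 of the 3 members between diets in subcutaneous fat, where 76% of all miRNAs were called, and 3 of 3 in visceral fat, where 71.7% were, so a call between diets sets no miRNA apart from the rest.

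Ordered by mean scaled log2 level ± SD (n = 8 each), bta-miR-10a stood at -2.22 ± 0.262 in high fat visceral, -3.15 ± 0.314 in high fat subcutaneous, -3.50 ± 0.746 in control visceral and -4.12 ± 0.650 in control subcutaneous fat. Its middle neighbours differed by 0.35 (limma adjusted p = 0.240), within their spread, as did the 2 control depots. bta-miR-10b had the same order, at 0.51 ± 0.263, 0.26 ± 0.219, -0.97 ± 0.517 and -1.13 ± 0.550. Its means differed between the diets (high fat subcutaneous minus control visceral 1.23, limma adjusted p = 3.12e-06), but not beyond the spread between the depots of a diet. bta-miR-196a followed the depots instead, at -2.01 ± 0.354 in control visceral, -3.02 ± 0.403 in high fat visceral, -6.40 ± 1.66 in control subcutaneous and -7.17 ± 0.0940 in high fat subcutaneous fat. Its means in high fat visceral and control subcutaneous fat differed by 3.38 (limma adjusted p = 2.11e-08). The arrays of these groups still overlapped, since the control subcutaneous value of steer 108, -2.43, lay inside the high fat visceral range. Of the 8 control subcutaneous values, 5 stood at the floor.

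The nearest relatives on the array were read beside the members: bta-miR-99a, bta-miR-99b and bta-miR-100, whose sequences are related to miR-10 but whose genes lie outside the HOX clusters, and bta-miR-615, whose gene lies inside HOXC5. bta-miR-615 was not detected on any array. Of the other 3, limma called 1 between depots on the Control diet, bta-miR-99a, which was lower in visceral fat by 0.60 (-0.60, standard error 0.196, adjusted p = 0.0450), and 0 on the High fat diet, where bta-miR-99a differed by -0.39 (adjusted p = 0.174) and bta-miR-99b by 0.47 (adjusted p = 0.103). bta-miR-99b was nevertheless higher in visceral fat in 8 of 8 high fat steers, by 0.02 to 1.09. The median depot difference of these 3 was -0.21 in Control steers and -0.05 in High fat steers. Between diets all 3 were called in both depots, bta-miR-99a and bta-miR-100 higher and bta-miR-99b lower on the High fat diet.

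The miRNAs whose within-steer depot differences were most like those of each member were found by Pearson's r over 16 steers, as a description. All points share the scaling of their array. For bta-miR-10a these were bta-miR-10b (r = 0.913), bta-miR-2439 (r = 0.888, detected on 20 of 32 arrays) and bta-miR-100 (r = 0.874). For bta-miR-10b they were bta-miR-10a, bta-miR-100 (r = 0.883) and bta-miR-99b (r = 0.849). For bta-miR-196a they were bta-miR-185 (r = 0.710), bta-miR-484 (r = 0.704) and bta-miR-17-5p (r = 0.589). Without steer 108 these fell to 0.297, 0.475 and 0.412 over 15 steers, so the values for bta-miR-196a rested in part on that steer. Among the high fat steers alone they were 0.283, 0.9335 and 0.626. The miR-10 members thus varied together from steer to steer, also without steer 108 (r = 0.976), while their mean depot differences were unequal.

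Marker miRNAs of other cell types were set beside the depot difference of bta-miR-196a. The kidney tubule markers miR-192, miR-194 and miR-215, of interest since perirenal fat surrounds the kidney, were at 0 on all control arrays, whose signal was lower throughout. On the High fat diet all 3 were detected on some array, with a summed scaled intensity of 0.0139 to 0.0297 in subcutaneous and 0.0179 to 0.0379 in visceral fat, and bta-miR-194 was called higher in visceral fat. Of 6 epithelial markers, 0 were detected in 3 groups and 1, bta-miR-200b, in high fat visceral fat. The endothelial miR-126 had scaled intensities of 0.578 to 1.49 in control subcutaneous and 0.863 to 2.42 in control visceral fat, and of 3.45 to 4.65 and 4.93 to 7.96 on the High fat diet. Its depot differences, 0.66 and 0.57 on the log2 scale, did not pass the test.

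Muscle markers, 5 in all, were seen for 2 and 4 of 5 in control subcutaneous and visceral fat and for 4 of 5 in both depots on the High fat diet, with a summed scaled intensity of at most 0.228, and none was called between depots. Blood cell markers were seen for 3 of 5 on the Control diet in both depots and for 5 and 4 of 5 in high fat subcutaneous and visceral fat, at 0.226 to 0.995 in all, with bta-miR-486 higher in visceral fat on both diets and bta-miR-223 lower on the High fat diet. The liver marker miR-122 was at 0 in both subcutaneous groups and reached 0.277 and 0.427 on visceral arrays. Among the fat markers the summed scaled intensity was 1.65 to 3.15 in control subcutaneous and 2.75 to 4.99 in control visceral fat, and 1.82 to 2.36 and 2.65 to 5.30 in the High fat steers. Of these markers, bta-miR-378 was called higher in visceral fat on both diets and bta-miR-365-3p on the High fat diet. The part of these cell types in the depot difference of bta-miR-196a was not tested.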

How the data were processed

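Total RNA was labelled with Cy3 and hybridized by the authors to custom Agilent arrays, 1 array a sample. Per the file headers the authors' Feature Extraction software gave background-subtracted intensity values, summed over the probes of a miRNA over 3 times their error, unscaled, with 0.1 for no detection. The deposited log2 table was normalized by the authors in GeneSpring to the 75th percentile, with values under 0 listed as 0. It was used as an alternative, and all 244 of its features with signal matched 1 miRNA by value within 0.001.

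The intensity was divided by the 75th percentile of its array over 91 miRNAs detected on all 32 arrays. Values were floored at 0.00671 and put on the log2 scale. The detection filter (8 arrays or more) kept 240 miRNAs, and the 233 above the floor on some array were tested with limma 3.58.1 in R 4.3 (two-sided moderated test, Benjamini-Hochberg over all 233, threshold 0.05). The block for the steer was used for depots and interaction, and 4 groups without a block for diets. The paired design comes from the labels, which name the steer. Deviations of the 2 arrays of a steer from their group means correlated between -0.391 and 0.652, over 0.1 in 5 of 16 steers. The script was tested on simulated data. The relative difference of bta-miR-10a and bta-miR-10b was tested by exact sign flips. Of 2560 spots of the members, 0 were saturated. The number of arrays limits the precision.

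The members, the relatives and the marker lists were chosen with earlier results of these data known. By the naming rule, the members, their relatives and the 3 miRNAs most like each member are named. Alternatives covered scaling, background, floor, filter, single probes, the deposited values, the steer block, steer 108 and the t-test of the methods (Bonferroni). Normexp background correction used the median spot intensity. No mature sequence of these miRNAs was used here.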

Additional observations from a re-analysis of the deposited data

Results flagged for a closer look

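For each member tested, the arrays of each group were examined for a value far from the others of its group, 12 groups in all. About 1 in 20 groups would show one by chance if no values were tied, and 2 did. Both were groups of bta-miR-196a with 5 and 6 of 8 values at the floor, so that rate does not apply to them. In control subcutaneous fat, bta-miR-196a stood at a scaled log2 level of -2.43 in steer 108, a gap to the next array of 0.754 of the whole range of the group. In high fat subcutaneous fat, bta-miR-196a stood at -6.96 in steer 302, a gap of 0.545 of a range in which 6 of 8 values were at the floor. The intensities of steers 108 and 302 were 46.7 and 13.7. In high fat subcutaneous fat the intensity of steer 411 was higher than that of steer 302, at 20.5.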

How the results depend on the processing

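The depot difference of bta-miR-196a kept its direction and passed the test under all 22 alternatives run on each diet, from 0.75 to 7.06 on the Control diet and from 1.83 to 5.57 on the High fat diet, with normexp lowest on both. The depot difference of bta-miR-10a was above 0 under all 21 alternatives on each diet. In the High fat diet it lost its call with the percentile over all miRNAs (0.94), no scaling (0.063), spike-in scaling (0.41), no filter (0.93), the deposited values (0.96) and probe sequence 1 alone (0.92). That of bta-miR-10b reversed on the Control diet with no scaling (-0.22), spike-in scaling (-0.065) and the deposited values (-0.14), and on the High fat diet with no scaling (-0.62) and spike-in scaling (-0.27). It passed the test under none of 21 alternatives. Without the replicate block for the steer, the depot differences were 0.62 and 0.93 for bta-miR-10a, 0.16 and 0.25 for bta-miR-10b and 4.39 and 4.15 for bta-miR-196a, and this fit changed no call of a member.

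The interaction reversed for bta-miR-10a without scaling (-0.18), and for bta-miR-10b with the percentile over all miRNAs (-0.22), no scaling (-0.40) and spike-in scaling (-0.20). For bta-miR-196a it reversed with no scaling (0.14), spike-in scaling (0.50), spot intensities (0.65), the own detection limit (0.66), all probes summed (0.62), each of the last 2 without steer 108 (0.15 and 0.15) and normexp (1.08), the last past the threshold (adjusted p = 0.0369, of a range from 0.0369 to 0.981 over 21 alternatives) and the only one that was.

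Diet differences changed most. With the percentile over all miRNAs they were -3.18 in subcutaneous and -3.17 in visceral fat for bta-miR-10a and -2.75 and -2.97 for bta-miR-10b, and for bta-miR-196a -2.13, which passed the test, and -5.46. That percentile was an undetected value on 15 control arrays. With normexp they were -0.93 and -0.42 for bta-miR-10a. With the deposited values they were -0.43 and 0.21 for bta-miR-10a and -0.0046 and 0.41 for bta-miR-10b, none past the threshold, and the visceral difference of bta-miR-196a was -2.08. The methods' t-test with Bonferroni correction gave the same differences for bta-miR-10a, 0.96 and 1.28, without a call. bta-miR-196a reversed with no scaling (1.27 and 1.41) and spike-in scaling (1.37 and 1.86). Its subcutaneous difference passed the test with spot intensities (-1.66), normexp (-2.31), the own detection limit (-1.68) and all probes summed (-1.63), and with the last 2 without steer 108 (-1.20 and -1.19). The own limits were higher on the control subcutaneous arrays, so the calls made with them set limits against measured values. All probes summed and both fits that combine a setting with leaving out steer 108 were chosen after seeing the data. Its visceral difference lost its call with the median over the 91 miRNAs (-0.79), the floor at an intensity of 1 (-1.01), no filter (-1.01) and probe sequence 4 alone (-1.0). The cause of these changes was not tested.

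The number of miRNAs called between depots on the Control diet, 37, fell to 12 with the percentile over all miRNAs, 18 with no scaling, 13 with spike-ins, 3 with normexp, 22 with the own detection limit (23 also without steer 108), 24 among the miRNAs detected on all arrays, 20 with no filter, 16 with the deposited values and 4 with the methods' t-test. On the High fat diet, 47 became 7, 128, 89 and 175 with the percentile over all miRNAs, no scaling, spike-ins and normexp, 75 with spot intensities, 26 with no filter, 7 with the deposited values and 22 with the methods' t-test. For the interaction, 3 became 30 with no scaling, 5 with the median, 7 with quantile normalization, 16 with spike-ins, 5 with spot intensities, 7 with the floor at 1, 0 among the miRNAs detected on all arrays, 0 with the own detection limit without steer 108 and 5 with the deposited values. Between diets, 177 and 167 became 79 and 80 among the miRNAs detected on all arrays, where fewer were tested. Detection of bta-miR-196a in high fat subcutaneous fat was 8 of 8 by the call used and 0 of 8 by a deposited value above 0. Low signal on the control arrays limits what bta-miR-196a in subcutaneous fat and bta-miR-196b can show.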
